A study of Homo sapiens with 5 samples.

Results

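Collagens, laminins and the integrins that bind them were followed across 5 arrays of the human embryonic stem cell line H1, in which BMP4 and pyruvate were given alone or together. The genes were chosen by name only: COL, digits, A and digits for collagen chains, LAMA, LAMB or LAMC and a digit for laminin chains, and ITGA or ITGB with a number or 1 of the letters D, E, L, M, V and X for integrin subunits. This gave 78 of the 20041 genes with a named probe, made up of 43 collagen chains, 10 laminin chains, 17 integrin alpha chains and 8 integrin beta chains. Of these 78, 53 were detected on at least 1 array, 34 on all 5 and 25 on none, by the brightest probe of each gene. COL6A5, among the 25, has a further probe that was detected at day 6. ITGA2B, whose symbol ends in a letter after the number, fell outside the rule and was detected on 0 arrays.

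The 5 conditions were BMP4 with 16 mM added pyruvate for 6 days, the same mixture for 2 days, BMP4 alone for 2 days, 16 mM added pyruvate alone for 2 days, and E8, the unsupplemented defined medium, at day 2. BMP4 is the growth factor used here to start mesoderm differentiation. All cultures were of the same line, in E8 on plates coated with Matrigel, a basement membrane extract that itself supplies laminin and collagen IV protein, and the labels give neither the dose of BMP4 nor the passage or density of each culture. Each condition had 1 array, so a difference between conditions has no replicate check, and no day 6 array of E8, BMP4 alone or pyruvate alone was analysed here, so time and treatment cannot be told apart in the comparisons that use day 6.

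Collagens are trimers of 3 chains, wound around each other. Fibrillar types (I, II, III, V, XI) form the fibres of connective tissue, type IV forms the network of basement membranes, type VI forms beaded filaments around cells, and types such as IX and XII attach to the surface of fibres. Laminins, each of 1 alpha, 1 beta and 1 gamma chain, are the other network of basement membranes. Integrins are cell surface receptors of 1 alpha and 1 beta chain. The alpha chain largely sets the ligand: alpha 3, 6 and 7 bind laminin, alpha 5, 8 and V bind proteins with the RGD motif such as fibronectin and vitronectin, and alpha 1, 2, 10 and 11 bind collagen. Pluripotent human stem cells attach to laminin largely through alpha 6 beta 1 and to vitronectin through alpha V beta 5, and mesoderm cells leaving the primitive streak move through a matrix rich in fibronectin.

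Values are log2 of the normalized signal of the gene's brightest probe. A gene is called higher or lower where its log2 values differ by at least 1, a factor of 2, and the brighter of the arrays detected it (detection p under 0.01). No test stands behind such a call, which is a cutoff on size. Where no probe of the gene was detected on the dimmer array, the fold is a bound, written "at least", for which the dimmer array's value was raised to its lowest detected signal wherever it lay under it. Signals of different genes come from different probes and are not compared with each other. The arrays detected 35.2% to 40.1% of 47296 probes, E8 the most, and 48 of the 78 genes were detected in E8 against 39 to 44 on the other arrays. Among the day 2 arrays, that of BMP4 plus pyruvate differed most from the rest. All 4 detected 9728 genes. In 430 of these its log2 signal exceeded the other arrays by 0.5 or more and in 594 it fell short by as much, counting genes in which those arrays spanned at most 0.5, against at most 84 and 80 for any other array. Among collagens, laminins and integrins it lay above them in 4 of 35 genes (COL1A1, COL16A1, ITGA5 and ITGA9) and below them in 0. Comparisons that do not use that array are pyruvate against E8, BMP4 against E8, and day 6 against E8. In bulk RNA a lower signal from fewer cells of a type cannot be told apart from less RNA per cell.

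**Figure D1:**
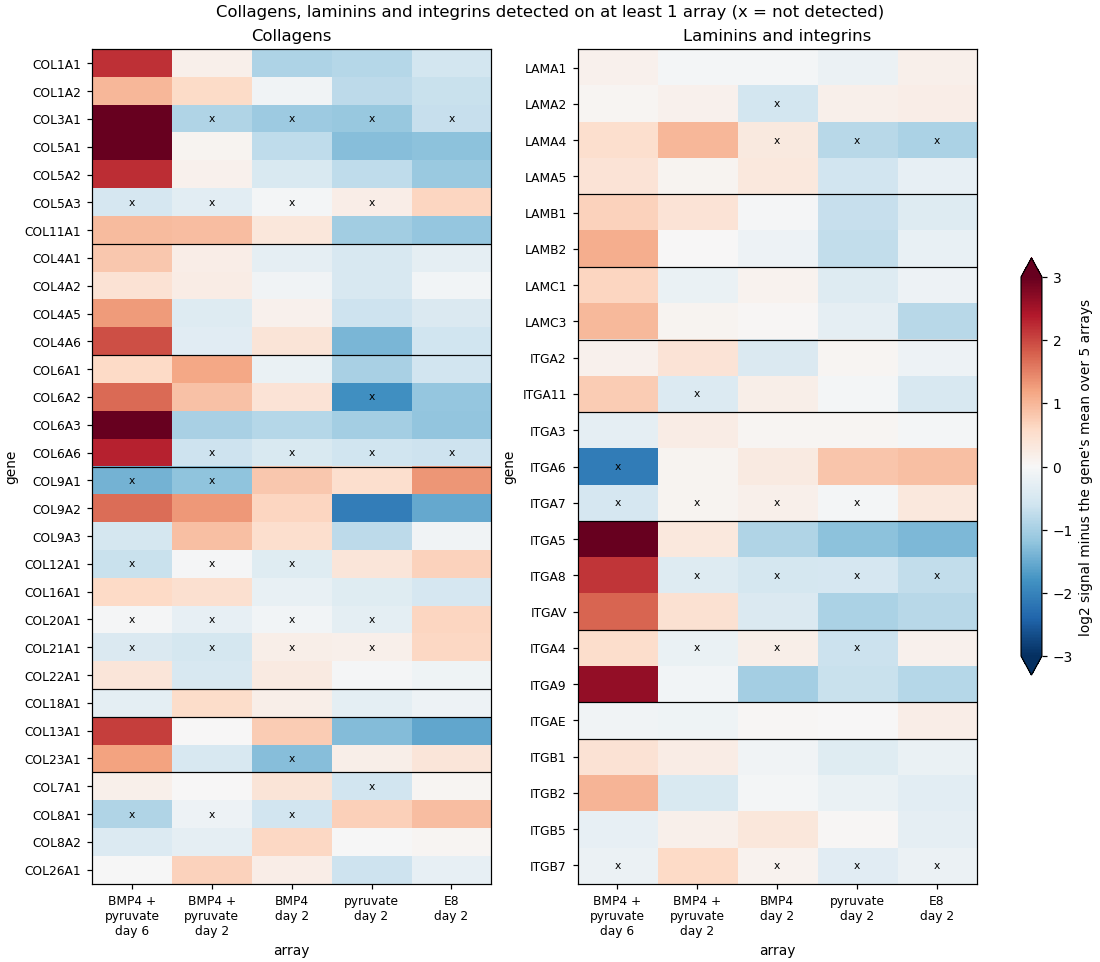
Each row is 1 of the 53 genes detected on at least 1 array and each column 1 array, coloured by the normalized log2 signal minus the gene's own mean over the 5 arrays, with x where the probe was not detected. Lines separate the classes of chain. Day 6 of BMP4 plus pyruvate is the reddest column for COL3A1, COL5A1, COL6A3, ITGA5, ITGA8, ITGA9 and ITGAV, and the bluest for ITGA6.

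More collagens, laminins and integrins were higher than lower at day 6. Of 52 genes detected at day 6 of BMP4 plus pyruvate or in E8, 26 were higher at day 6, where 12.5% of all 11992 detected genes were, and 6 were lower, where 12.3% were (24.8% in either direction). Among the 40 detected on both arrays, 33 lay above 0 with a median log2 difference of 1.09, against 50.6% above 0 and a median of 0.01 among all 9871 such genes. Of the 34 genes detected on all 5 arrays, 24 were brightest at day 6, 6 with BMP4 plus pyruvate at day 2, 2 with BMP4, 0 with pyruvate and 2 in E8. How many of all genes were brightest on each array was not counted, so these counts are a description only. The arrays also differed in cell markers. The 6 mesenchyme markers (TWIST1, PDGFRA, PDGFRB, DCN, LUM and POSTN) had a summed linear signal of 6790.4 at day 6 with 5 detected, all but DCN, against 836 with BMP4 plus pyruvate at day 2, 443 with BMP4, 265 with pyruvate and 209 in E8, where 1 to 3 were detected. The 6 lateral and cardiac mesoderm markers summed to 17462 with 5 detected at day 6. They summed to 1160.1 with BMP4 plus pyruvate at day 2 (2 detected) and to 1059.8 with BMP4 (1 detected). With pyruvate (156) and in E8 (158) 0 were detected, so these sums are background. Pluripotency markers went the other way, at 8567 with NANOG and SOX2 undetected at day 6, against 32673 with BMP4 plus pyruvate at day 2, 43296 with BMP4, 55801 with pyruvate and 53629.7 in E8, where all 7 were detected. Trophoblast and amnion markers summed to 11041.5 with 5 of 7 detected at day 6. They summed to 2614 with BMP4 plus pyruvate at day 2 (3 detected) and to 2945 with BMP4 (2 detected). With pyruvate (282) and in E8 (449.6) 1 was detected on each array. Endoderm markers summed to 2387 with 5 of 5 detected at day 6, against 296 with BMP4 plus pyruvate at day 2 (2 detected). With BMP4 (165), with pyruvate (145) and in E8 (145) 0 were detected, so these sums are background. Of the endothelial markers KDR and TEK were higher at day 6 than in E8, while PECAM1, CDH5, TIE1 and CD34 were undetected on all 5 arrays. Of the blood markers HBE1 was higher at day 6, while PTPRC and SPI1 were undetected on all 5 arrays. Primitive streak markers summed to 10439.5 at day 6 and 9584 with BMP4 plus pyruvate at day 2, with 5 of 6 detected on each. They summed to 2979 with BMP4 (4 detected), 446 with pyruvate (1) and 284 in E8 (2). From day 2 to day 6 of BMP4 plus pyruvate, MESP1 was higher, TBXT and MIXL1 were lower and 2 were neither. The median log2 difference of the 5 detected on both arrays was -0.77. Neuroectoderm markers summed to 1191 in E8 with 3 of 5 detected. They summed to 827 at day 6, 485 with BMP4 plus pyruvate at day 2, 784 with BMP4 and 781 with pyruvate, with 2 detected on each. The part of all these cell types in the values below was not tested.

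**Figure D2:**
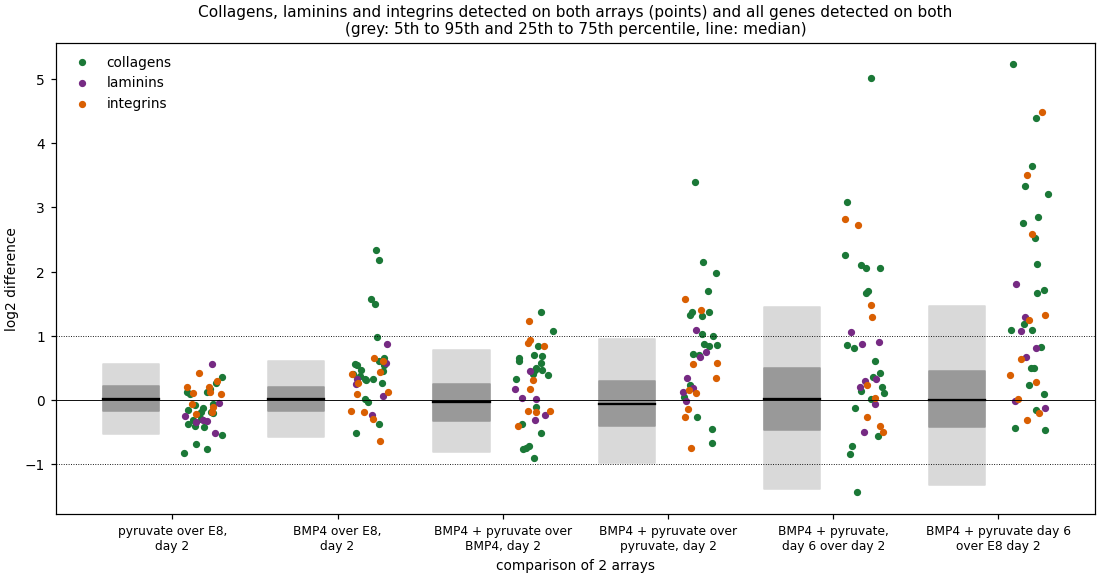
For each of the 6 comparisons the points are log2 differences of the collagens, laminins and integrins detected on both arrays, and the grey bars leave out the lowest and highest 5% (light) and 25% (dark) of all genes detected on both, with a line at their median. The points lie within 1 of 0 for pyruvate over E8 and reach 5.23 (COL6A3) for day 6 over E8, and the dotted lines mark the rule of size.

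Fibrillar collagens were the class with the most higher chains at day 6. Of 7 detected at day 6 or in E8, 6 were higher at day 6 and 1 was lower, beside 12.5% and 12.3% of all genes. COL5A1, a chain of type V collagen, which sits inside collagen fibres, had a log2 signal of 13.05 with BMP4 plus pyruvate at day 6, 9.97 with that mixture at day 2, 9.12 with BMP4, 8.60 with pyruvate and 8.66 in E8. It was thus 8.46-fold higher at day 6 than at day 2 of the same mixture, and 21.0-fold higher than in E8. Its partner COL5A2 had 13.76 at day 6, 11.66 with BMP4 plus pyruvate at day 2, 11.08 with BMP4, 10.78 with pyruvate and 10.42 in E8, and was 10.1-fold higher at day 6 than in E8. Both chains were ordered in the same way over the 3 BMP4 arrays, while the pyruvate and E8 arrays lay within 0.36 of each other. COL3A1, the chain of type III collagen of soft connective tissue, was detected only at day 6, at 9.68, and lay between 4.72 and 5.16 on the other 4 arrays. That is at least 16.0-fold higher than with BMP4 plus pyruvate at day 2 and at least 17.9-fold higher than in E8.

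Type I collagen, the main fibre of bone and tendon, has 2 COL1A1 chains and 1 COL1A2 chain per trimer. COL1A1 had 10.06 at day 6, 8.01 with BMP4 plus pyruvate at day 2, 6.94 with BMP4, 7.01 with pyruvate and 7.31 in E8, so only the arrays with both factors lay above E8. COL1A2 had 11.46, 11.04, 10.35, 9.68 and 9.80 on the same arrays in that order. At day 6 COL1A1 was 6.73-fold and COL1A2 3.16-fold higher than in E8, and a further probe of COL1A2 gave a log2 difference of 2.21. COL11A1, a chain of the minor fibre collagen XI of cartilage, showed its difference earlier: it had 10.95 at day 6, 10.92 with BMP4 plus pyruvate at day 2, 10.32 with BMP4, 8.95 with pyruvate and 8.82 in E8. All 3 arrays with BMP4 lay above both without it. COL5A3, a further type V chain, was the lower one, detected only in E8 at 5.52, which is close to the lowest value of any detected probe there, so no fold is given. COL2A1, COL11A2, COL24A1 and COL27A1 were undetected on all arrays.

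The detected type VI collagen chains were higher at day 6. Of the 5 chains COL6A1, COL6A2, COL6A3, COL6A5 and COL6A6, 4 were detected at day 6 by their brightest probes. All 4 were higher than in E8, as were 12.5% of all genes. The fifth, COL6A5, had 1 of its 4 further probes detected at day 6 and not in E8, with a log2 difference of 1.83. COL6A3, the longest of the chains of its usual trimer, had 11.15 at day 6 but 6.15 with BMP4 plus pyruvate at day 2, 6.25 with BMP4, 6.09 with pyruvate and 5.92 in E8. The 4 arrays of day 2 lay within 0.32 of each other, and day 6 lay 32.2-fold above the same mixture at day 2 and 37.5-fold above E8, with a second probe, undetected in E8, at 5.13 in log2. Its partners COL6A1 and COL6A2 showed their differences by day 2. COL6A1 had 12.20 at day 6, 12.76 with BMP4 plus pyruvate at day 2, 11.38 with BMP4, 10.61 with pyruvate and 11.02 in E8, and COL6A2 had 8.83, 8.02, 7.56, 5.30 (undetected) and 5.98 in that order. The 3 chains of 1 trimer were therefore not highest on the same array. COL6A6, an alternative to COL6A3 in the trimer, was detected only at day 6 (7.60), at least 4.23-fold above E8.

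**Figure D3:**
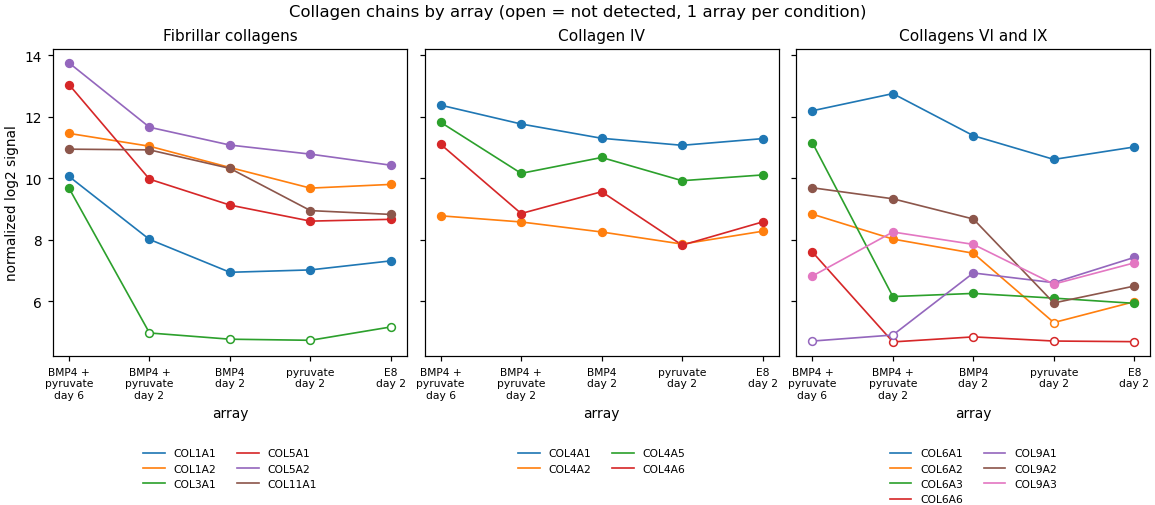
Normalized log2 signal of chains of fibrillar collagens, collagen IV, and collagens VI and IX on each of the 5 arrays, 1 array per condition, with open circles where the probe was not detected. COL3A1, COL6A3 and COL6A6 are high at day 6 alone, COL9A2 and COL11A1 are high on all 3 arrays with BMP4, and COL9A1 is undetected on both arrays of BMP4 plus pyruvate.

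The collagen IV chains of basement membranes are encoded as 3 pairs of genes that start close together and run in opposite directions. COL4A1 and COL4A2, whose products join in the trimer found in nearly all basement membranes, start 127 bases apart on chromosome 13. COL4A5 and COL4A6 start 380 bases apart on chromosome X, counting the nearer of 2 listed COL4A6 starts, and COL4A3 and COL4A4 start 419 bases apart on chromosome 2 (RefSeq, GRCh38.p14). The starting region of each detected pair is shown because the genes of a pair share it and because their values can be set side by side. A window of 300 bases (250 before and 50 after the start) was read for COL4A2 at chr13:110307034-110307333 on the plus strand, which also covers the start of COL4A1, for COL4A5 at chrX:108439588-108439887 on the plus strand, and for COL4A6 at chrX:108439409-108439708 on the minus strand. Capitals mark, on either strand, the GC box GGGCGG, the CCAAT box CCAAT and the TATA box TATAAA.
COL4A2: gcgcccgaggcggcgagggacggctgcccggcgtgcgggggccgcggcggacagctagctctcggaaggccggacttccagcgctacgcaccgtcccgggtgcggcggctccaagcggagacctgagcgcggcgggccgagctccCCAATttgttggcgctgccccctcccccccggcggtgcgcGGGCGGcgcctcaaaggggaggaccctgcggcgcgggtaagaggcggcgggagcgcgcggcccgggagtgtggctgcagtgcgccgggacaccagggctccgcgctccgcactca
COL4A5: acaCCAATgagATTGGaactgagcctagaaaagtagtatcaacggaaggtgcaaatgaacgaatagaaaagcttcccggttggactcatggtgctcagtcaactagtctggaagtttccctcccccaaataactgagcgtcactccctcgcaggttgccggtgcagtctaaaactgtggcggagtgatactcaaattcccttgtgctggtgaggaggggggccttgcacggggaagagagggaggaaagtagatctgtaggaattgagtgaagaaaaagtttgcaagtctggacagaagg
COL4A6: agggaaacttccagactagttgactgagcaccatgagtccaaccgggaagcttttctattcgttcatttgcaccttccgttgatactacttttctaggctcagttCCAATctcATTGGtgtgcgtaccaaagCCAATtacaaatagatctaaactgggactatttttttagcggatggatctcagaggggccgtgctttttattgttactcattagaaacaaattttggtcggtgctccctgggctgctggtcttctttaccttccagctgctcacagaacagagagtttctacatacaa
The COL4A2 window held 1 GC box and 1 CCAAT box and was 77.7% G or C. The COL4A5 window held 2 CCAAT boxes and the COL4A6 window 3, with 0 GC boxes in either, and they were 49.3% and 43.7% G or C. The windows of COL4A5 and COL4A6 share 121 bases, and 2 CCAAT boxes lie in that stretch. No TATA box was in any of the 3 windows, and no motif match overlapped another. Among all 35116 windows of the table, 44.95% held a GC box, 34.6% a CCAAT box and 11.5% a TATA box. Of the 78 genes, 55 had a window in the table.

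On the arrays the pair on chromosome X moved further than the pair on chromosome 13. COL4A5 had 11.82 at day 6, 10.16 with BMP4 plus pyruvate at day 2, 10.68 with BMP4, 9.92 with pyruvate and 10.11 in E8. COL4A6 had 11.10, 8.85, 9.56, 7.82 and 8.58 in that order, so both genes had the same order of the 5 arrays by these probes. A second COL4A5 probe disagreed at day 2, with a log2 difference of 0.53 for BMP4 plus pyruvate over BMP4, against -0.52 for the probe used, and of 1.31 over pyruvate, against 0.24. For day 6 over E8 it had 1.72. At day 6 COL4A5 was 3.28-fold and COL4A6 5.77-fold higher than in E8. For COL4A1 the values were 12.38 at day 6, 11.77 with BMP4 plus pyruvate at day 2, 11.30 with BMP4, 11.07 with pyruvate and 11.29 in E8, and for COL4A2 8.78, 8.58, 8.25, 7.85 and 8.27. COL4A1 was 2.13-fold higher at day 6 than in E8, and COL4A2, with a log2 difference of 0.50, was neither. COL4A3 and COL4A4, the chains of the kidney and lung basement membrane, were undetected on all 5 arrays.

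Type IX collagen, which decorates the fibres of cartilage as a trimer of COL9A1, COL9A2 and COL9A3, did not move as a unit. COL9A2 had 9.69 at day 6, 9.33 with BMP4 plus pyruvate at day 2, 8.67 with BMP4, 5.94 with pyruvate and 6.49 in E8, the widest difference for BMP4 plus pyruvate over pyruvate among these genes (10.5-fold), and 4.54-fold without pyruvate. COL9A1 was undetected on both arrays of BMP4 plus pyruvate (4.70 at day 6 and 4.89 at day 2), against 6.91 with BMP4, 6.60 with pyruvate and 7.42 in E8, and was at least 2.94-fold lower at day 6 than in E8. It has 4 probes on the array, and the other 3 were undetected in these comparisons. COL9A3 had 6.81 at day 6, 8.25 with BMP4 plus pyruvate at day 2, 7.84 with BMP4, 6.55 with pyruvate and 7.24 in E8. COL9A1 and COL9A2 thus lay on opposite sides of E8 on the arrays of BMP4 plus pyruvate.

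Other collagens divided. COL13A1, a collagen with a transmembrane segment found at cell junctions, had 9.67 at day 6, 7.61 with BMP4 plus pyruvate at day 2, 8.36 with BMP4, 6.30 with pyruvate and 6.03 in E8, and was 12.5-fold higher at day 6 than in E8. COL23A1, a further transmembrane collagen, had 7.68 at day 6, 5.99 with BMP4 plus pyruvate at day 2, 5.21 (undetected) with BMP4, 6.65 with pyruvate and 6.85 in E8, lowest with BMP4 alone. COL8A1, of the short-chain network collagens, and COL12A1 and COL21A1, of the type that attaches to fibres, were undetected at day 6 and at least 1.46-fold, 1.38-fold and 1.12-fold lower than in E8. COL16A1, of the same fibre-attached type, was 2.13-fold higher. COL26A1 lay between 8.39, with pyruvate, and 9.71, with BMP4 plus pyruvate at day 2. COL18A1, the source of endostatin, stayed within 0.86 over all 5 arrays.

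The laminin chains of the early embryo were detected on every array. LAMA1 and LAMA5, with LAMB1 and LAMC1, make up laminin-111 and laminin-511, the forms of the embryonic basement membrane. LAMA1 had 10.60 at day 6, 10.41 with BMP4 plus pyruvate at day 2, 10.39 with BMP4, 10.29 with pyruvate and 10.62 in E8, a range of 0.33, the smallest of any of the 34 genes detected on all arrays. LAMA5 had 11.99 at day 6, 11.65 with BMP4 plus pyruvate at day 2, 11.89 with BMP4, 10.99 with pyruvate and 11.31 in E8, lowest with pyruvate. LAMB1 had 11.66 at day 6, 11.37 with BMP4 plus pyruvate at day 2, 10.92 with BMP4, 10.28 with pyruvate and 10.58 in E8, 2.11-fold higher at day 6 than in E8. LAMC1 had 13.12, 12.25, 12.56, 12.07 and 12.31 in that order, and was neither in any comparison.

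Of 8 detected laminin chains, 4 were higher at day 6 than in E8, 0 were lower and 4 were neither. Among all detected genes 12.5% were higher and 12.3% lower. LAMC3, a gamma chain of brain and vascular laminins, was 3.51-fold higher (10.10 at day 6, 9.19 with BMP4 plus pyruvate at day 2, 9.16 with BMP4, 8.85 with pyruvate and 8.29 in E8). LAMB2, the beta chain of muscle, nerve and kidney basement membranes, was 2.46-fold higher, and LAMA4, an alpha chain of vessels, at least 1.44-fold. LAMA4 was detected only on the arrays of BMP4 plus pyruvate, at 6.04 at day 6 and 6.53 at day 2. LAMB3, a chain of the laminin of skin epithelium, and LAMB4 were undetected on all arrays, as was ITGB4, the beta chain of the epithelial laminin receptor.

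**Figure D4:**
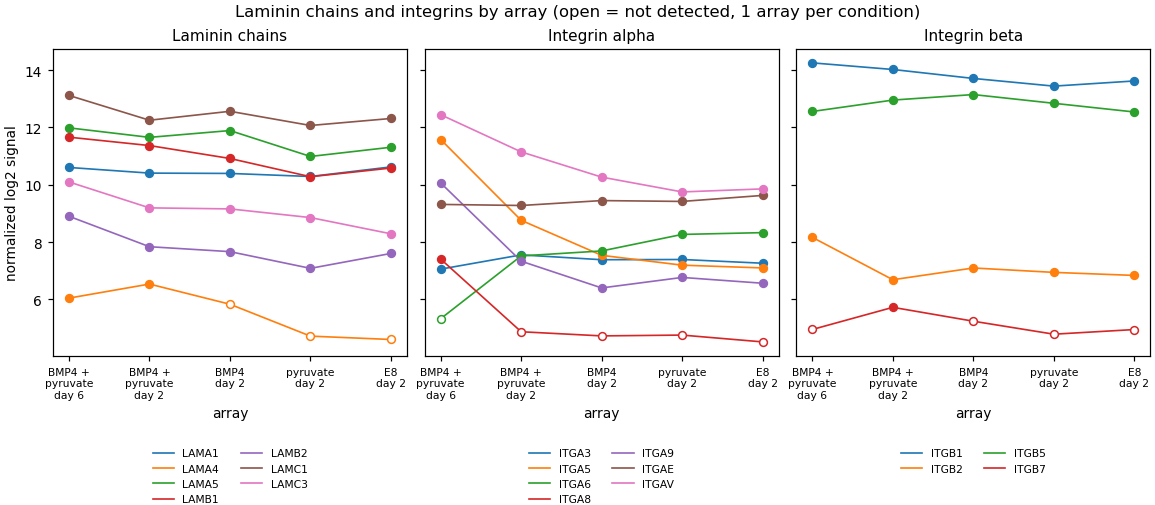
Normalized log2 signal of laminin chains, integrin alpha chains and integrin beta chains on each of the 5 arrays, 1 array per condition, with open circles where the probe was not detected. LAMA1 changes least, ITGA5, ITGA9, ITGAV and ITGA8 are highest at day 6, and ITGA6 is highest in E8 and undetected at day 6.

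Among integrins, alpha chains of fibronectin and vitronectin receptors were higher at day 6. The alpha chain of the main laminin receptor of stem cells was lower. ITGA5, the alpha chain of the classical fibronectin receptor, had 11.58 at day 6, 8.76 with BMP4 plus pyruvate at day 2, 7.53 with BMP4, 7.19 with pyruvate and 7.10 in E8, which made it 22.4-fold higher at day 6 than in E8 and 7.07-fold higher than at day 2 of the same mixture. ITGAV had 12.44, 11.15, 10.27, 9.75 and 9.85 in that order, 6.02-fold higher at day 6 than in E8. ITGA8, which binds nephronectin and other RGD ligands, was detected only at day 6 (7.40), at least 3.71-fold above E8. So all 3 RGD-binding alpha chains were higher in both comparisons of day 6 (12.5% of all genes over E8, 13.5% over day 2). ITGA9, which binds tenascin C and other ligands and is not of that group, had 10.06 at day 6, 7.33 with BMP4 plus pyruvate at day 2, 6.40 with BMP4, 6.76 with pyruvate and 6.56 in E8, 11.3-fold higher at day 6 than in E8. ITGA11, a collagen receptor of mesenchyme, was 2.38-fold higher, and ITGB2, the beta chain of leukocyte integrins, 2.51-fold, with a second probe at 1.30 in log2. Its leukocyte alpha partners ITGAL, ITGAM, ITGAX and ITGAD were undetected on all arrays.

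ITGA6, the alpha chain of the laminin receptor of stem cells, had 5.32 (undetected) at day 6, 7.51 with BMP4 plus pyruvate at day 2, 7.69 with BMP4, 8.26 with pyruvate and 8.33 in E8. It was at least 5.51-fold lower at day 6 than in E8 and at least 3.13-fold lower than at day 2 of the mixture, and its other 2 probes were undetected. On the day 2 arrays it was neither. ITGA3, a further laminin receptor chain, stayed between 7.05 and 7.55 on all arrays, and ITGA2, a collagen receptor chain, between 7.03 and 7.87. ITGAE, best known from T cells in epithelium, stayed within 0.35.

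No comparison called ITGB1 or ITGB5 by the brightest probe, but their probes disagreed. ITGB1, the partner of most of the alpha chains above, had 14.25 at day 6, 14.02 with BMP4 plus pyruvate at day 2, 13.71 with BMP4, 13.44 with pyruvate and 13.62 in E8. Of 2 further ITGB1 probes detected on both arrays, 1 had a log2 difference of 0.57 for day 6 over E8 and the other -0.56, beside 0.63 for the brightest. ITGB5, the partner of ITGAV in the vitronectin receptor, had 12.56, 12.96, 13.15, 12.84 and 12.54 in that order. One of its further detected probes had a log2 difference of 1.40 for BMP4 plus pyruvate over BMP4, past the rule of size, where the brightest probe had -0.19 and a further one 0.19. The same probe had 1.87 for BMP4 plus pyruvate over pyruvate and -2.02 for day 6 over day 2 of the mixture, so ITGB5 has no settled direction in these comparisons. In all, 8 genes had a further probe past the rule of size where the brightest was not called (COL1A2, COL4A5, COL6A2, COL6A5, COL8A1, COL8A2, ITGB5 and LAMB1). ITGB3, ITGB6 and ITGB8, the other beta chains that pair with ITGAV besides ITGB1 and ITGB5, were undetected on all arrays.

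Pyruvate alone differed little from E8 for these genes. Of 48 detected, 0 were higher and 0 lower, where 1.05% and 1.32% of all 11475 detected genes were (2.37% in either direction). The absence of calls is thus near the background. A further COL8A2 probe, detected in E8 and not with pyruvate, had a log2 difference of -1.01, where the brightest had -0.08. Most lay slightly below E8: of 41 detected on both arrays, 14 lay above 0, against 53.4% of all genes, and the median was -0.16 against 0.02. The widest of these differences were COL9A1 at -0.82 and COL4A6 at -0.76, and LAMC3 lay at 0.57.

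By the rule of size, 7 of these genes differed between BMP4 alone and E8, and all were collagens. Of 48 detected genes 4 were higher, where 2.68% of all 11559 were, and 3 were lower, where 2.52% were (5.20% in either direction). The higher ones were COL13A1 (5.02-fold), COL9A2 (4.54-fold), COL6A2 (2.99-fold) and COL11A1 (2.83-fold), and the lower ones COL23A1 (at least 1.95-fold), COL8A1 (at least 1.44-fold) and COL12A1 (at least 1.36-fold). Further detected probes of COL6A2 (0.84 in log2) and COL12A1 (-0.84) fell short of the rule of size, while those of COL11A1 (1.64) and COL8A1 (-1.21) passed it. Of 7 laminin chains and 13 integrin subunits detected, 0 passed. For laminins and integrins the absence of calls is near the background of 5.20%. Of the 28 detected collagens 4 were higher and 3 lower, beside 2.68% and 2.52% of all genes. The difference between the families was not tested. Over the 39 genes detected on both arrays, 31 lay above 0, with a median of 0.37 against 0.01 for all genes.

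With pyruvate present on both sides, BMP4 went with more calls, among all genes as well. This comparison uses the day 2 array that stood apart. Of 45 detected genes 14 were higher than with pyruvate alone, where 6.46% of all 11282 were, and 1, COL9A1 (at least 1.90-fold), was lower, where 5.77% were (12.2% in either direction). All 4 genes that were higher with BMP4 alone were higher here as well (COL9A2, COL6A2 at least 4.33-fold, COL11A1 3.94-fold and COL13A1 2.49-fold). The other 10 were COL6A1 (4.42-fold), COL9A3 (3.24-fold), ITGA5 (2.96-fold), ITGAV (2.64-fold), COL5A1 (2.58-fold), COL1A2 (2.58-fold), COL26A1 (2.49-fold), LAMB1 (2.13-fold), COL4A6 (2.04-fold) and LAMA4 (at least 1.54-fold). Of the further probes of COL1A2 (0.98) and LAMB1 (0.53), neither reached 1. Over the 37 genes detected on both arrays the median was 0.69, against -0.07 for all genes.

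**Figure D5:**
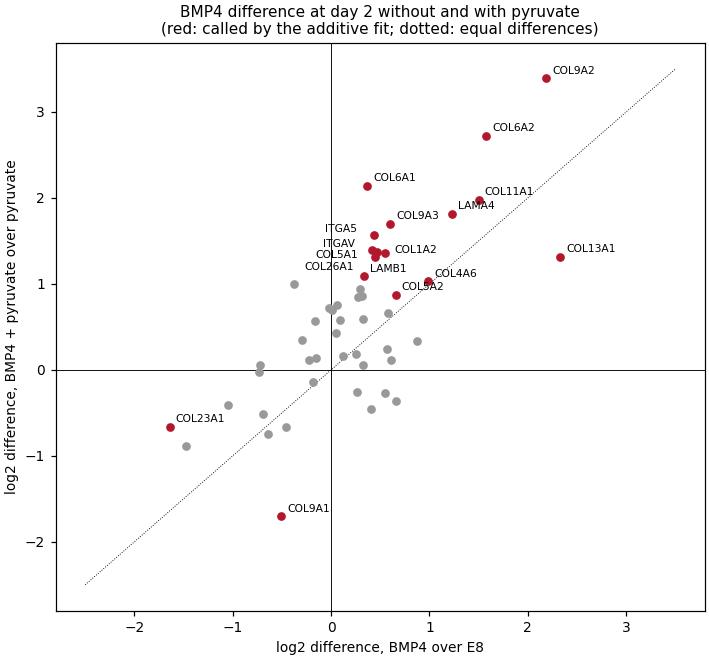
Each point is 1 of the 50 genes detected on at least 1 array of day 2, placed by its log2 difference for BMP4 over E8 (horizontal) and for BMP4 plus pyruvate over pyruvate (vertical), pairs that share no array. Red points, with names, passed the additive fit for BMP4, and the dotted line marks equal differences. COL9A2 (2.18 and 3.39), COL6A2, COL11A1 and COL13A1 are past 1 in both, and COL6A1 (0.37 and 2.14) lies farthest above the line among the named genes.

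Adding pyruvate to BMP4 went with 3 higher genes and 1 lower of 43 detected, where 3.72% and 3.06% of all 11198 were. COL6A1 (2.59-fold), ITGA5 (2.33-fold) and COL1A1 (2.10-fold) were higher and COL9A1 (at least 2.36-fold) was lower. In either direction 6.79% of all genes passed, so these 4 calls are near the background. These values rest on the array that stood apart, and COL1A1 and ITGA5 are among the genes in which it differed from the other 3. In the same pyruvate contrast without BMP4 the 4 genes had log2 differences of -0.41 (COL6A1), 0.10 (ITGA5), -0.29 (COL1A1) and -0.82 (COL9A1).

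BMP4 and pyruvate were each present or absent at day 2, so limma was fitted to those 4 arrays with an additive term for each over 11978 genes. What is left over, 1 degree of freedom a gene, is how far the factors fail to add, and the variance is one that genes of like signal share, so the p-values carry no information on how cultures of one condition vary. For BMP4, 15 of 50 genes rose, where 3.36% of all genes did, and 2 fell, where 2.75% did (6.10% in either direction). COL9A2 rose by 2.79 in log2 (SE 0.30, limma adjusted p = 1.36e-17), higher in both pairs. COL11A1 rose by 1.74 (SE 0.26, limma adjusted p = 3.83e-09) and COL6A2 by 2.15 (SE 0.34, limma adjusted p = 3.76e-08). COL13A1, COL6A1, COL1A2, COL9A3, ITGAV, COL4A6, COL5A1, ITGA5, COL5A2, COL26A1 and LAMB1 rose as well, each with a positive difference in both pairs. All of them but COL13A1 (2.33 without pyruvate and 1.32 with it) had the larger difference with pyruvate. COL6A1 had 0.37 and 2.14 in that order, ITGA5 0.44 and 1.57, and ITGAV 0.41 and 1.40. The differences with pyruvate rest on the array that stood apart. COL9A1 and COL23A1 fell in both pairs. LAMA4 was also called, but it was detected on 1 of these arrays only, so no estimate is given. COL6A2, COL9A1 and COL23A1 were detected on 3 of the 4 arrays, and their estimates rest in part on background signal. LAMA5 (0.62, limma adjusted p = 0.0693) and ITGA6 (-0.69, limma adjusted p = 0.184) did not pass. For pyruvate 0 genes rose, where 0.459% did, and 1 of 50, COL9A1, fell (limma adjusted p = 0.0142), where 0.409% did (0.868% in either direction), with 5 at an unadjusted p under 0.05. With the mean of all its probes in place of the brightest, COL9A1 was not called for pyruvate.

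From day 2 to day 6 of BMP4 plus pyruvate the balance among these genes moved further. Of 46 detected, 17 were higher at day 6, where 13.5% of all 11628 were, and 2, ITGA6 and COL9A3 (2.70-fold), were lower, where 13.0% were (26.5% in either direction). The 17 were COL3A1, COL5A1, COL5A2, COL1A1, COL6A3, COL6A6, COL4A5, COL4A6, COL13A1, COL23A1, LAMB2, ITGA5, ITGA8, ITGA9, ITGA11, ITGAV and ITGB2. Of these 17, 5 were also among the 14 higher with BMP4 in pyruvate at day 2 (COL13A1, COL4A6, COL5A1, ITGA5 and ITGAV). Because both comparisons use the day 2 array of the mixture, this overlap is a description only. By their brightest probes, the 4 genes detected at day 6 but not in E8 were COL3A1, COL6A6, ITGA8 and LAMA4, to which a further probe adds COL6A5, and the 8 detected in E8 but not at day 6 were COL5A3, COL8A1, COL9A1, COL12A1, COL20A1, COL21A1, ITGA6 and ITGA7. Over all probes E8 also detected more than day 6 did (40.1% against 35.6%), and the share of all genes gained or lost was not counted. COL5A3 (5.52), ITGA7 (5.59) and COL20A1 (5.70) lay close to the lowest detected value in E8, 5.51.

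Enzymes that build collagen were higher with it at day 6. Of 27 listed genes for collagen synthesis and crosslinking, 22 were detected at day 6 or in E8, and 14 were higher at day 6, 0 were lower and 8 were neither, beside 12.5% higher and 12.3% lower among all genes. LOX, which crosslinks collagen and elastin, was at least 9.80-fold higher at day 6 than in E8. P3H2, a prolyl 3-hydroxylase, was 18.0-fold higher (13.36 at day 6, 11.28 with BMP4 plus pyruvate at day 2 and 9.20 in E8), PLOD2, a lysyl hydroxylase, 7.42-fold and P4HA2, a prolyl 4-hydroxylase subunit, 3.77-fold. At day 2 fewer of them passed: 0 of 18 were higher with BMP4 alone than in E8 (2.68% of all genes), and 2 of 20, LOX (at least 1.24-fold) and P3H2 (2.55-fold), were higher with BMP4 plus pyruvate than with BMP4 (3.72% of all genes). Over pyruvate alone, 4 of 21 were higher with BMP4 plus pyruvate (LOX, P3H2, SERPINH1 and TGM2), where 6.46% of all genes were. In that comparison 1, ADAMTS14, was lower, where 5.77% were. With pyruvate alone 1 of 19, ADAMTS14, was higher than in E8 (1.05% of all genes).

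Of 19 detected matrix partners of these chains, 10 were higher at day 6 than in E8, 3 were lower and 6 were neither, beside 12.5% higher and 12.3% lower among all genes, so the lower count is near the background. NID2, a nidogen that links laminin to collagen IV, was 14.2-fold higher and TNC, a ligand of alpha 9 integrin, 7.34-fold. TGFBI, an integrin ligand, was 5.69-fold higher, and NPNT, the ligand of alpha 8 integrin, at least 2.55-fold. FN1, fibronectin, was 2.09-fold higher by its brightest probe (6.64 at day 6 and 5.58 in E8). THBS2, a thrombospondin that restrains matrix assembly and vessel growth, was at least 22.9-fold lower. Of the integrin adaptors, which couple the receptors to actin, 22 were detected: SRC (6.51-fold), PARVA (4.12-fold), TNS1 (at least 2.25-fold), BCAR1 (2.68-fold) and FERMT2 were higher at day 6, FERMT1, the kindlin of epithelia, was 5.84-fold lower and 16 were neither.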

How the data were processed

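RNA of 5 cultures was measured on Illumina expression BeadChips, 1 array per condition. Per the file headers, the deposited intensity of each probe is unnormalized, and a deposited detection p-value accompanies it. For the scanner software, nothing is given in the sources used here. The log2 values of the other deposited table, of which no source describes the normalization, served only as an alternative. Intensities were corrected and quantile normalized with limma 3.58.1 (neqc, offset 16, R 4.3.3). Quantile normalization makes each difference relative to the other genes, and the offset shrinks differences of dim probes. Probes were named from the platform annotation (30105 with 1 symbol, 8 with several, 17183 with none), and all 78 genes matched RefSeq by Entrez identifier. For 30 of them with over 1 probe, the probe with the highest mean was used. The additive fit used lmFit and eBayes with a trend on the 4 arrays of day 2, with Benjamini-Hochberg adjustment over 11978 genes at 0.05, and was tested on simulated data. Genes were named if they passed the rule of size in any comparison, had 1 of the 3 highest means in their class or were on a short list of basement membrane and adhesion genes, and some of the latter kinds are given only by range. The genes, lists and tests were chosen with earlier results of these data known. The alternatives were no background correction, scaling to the 75th percentile, the deposited log2 values, detection p under 0.05, an offset of 50 and the mean over all probes, and for the fit no trend and 1 factor alone.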

Additional observations from a re-analysis of the deposited data

How the results depend on the processing

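No paired analysis was possible because each condition had 1 array, and no array could be left out within a condition. Of 77 calls of single genes by the rule of size, 43 were kept under all 6 alternatives, and none changed direction. Kept at day 6 against E8 were 21 of 32, among them COL1A1, COL3A1, COL5A1, COL6A3, ITGA5, ITGA6 and ITGAV; for BMP4 against E8 COL9A2 and COL13A1 were kept, and for pyruvate added to BMP4 only COL6A1. Without background correction, 3 genes were called for BMP4 against E8 in place of 7, 1 for pyruvate added to BMP4 in place of 4, and 12 for day 6 against day 2 in place of 19. With the mean over all probes the counts were 3 for BMP4 against E8, 9 for the BMP4 term of the fit in place of 17 and 0 for its pyruvate term in place of 1 (limma, 4 at an unadjusted p under 0.05). The BMP4 term had 10 calls with scaling to the 75th percentile, 11 without the trend and 4 with BMP4 as the only term, and the pyruvate term alone had 0 (limma, 0 at an unadjusted p under 0.05). All other totals of calls stayed within 1.5 times, but the few lower calls moved more: at day 6 against E8 they numbered 2 without background correction and 3 with an offset of 50 in place of 6, at day 6 against day 2 0 without background correction in place of 2, and the BMP4 term had 0 that fell with the deposited values in place of 2. Without background correction the lower calls for BMP4 against E8 numbered 0 in place of 3. For pyruvate added to BMP4 and for BMP4 in pyruvate they numbered 0 in place of 1 each. The BMP4 term then also had 0 that fell in place of 2. The cause was not tested. With scaling to the 75th percentile the median difference over detected genes was -0.14 for pyruvate added to BMP4. It was -0.18 for BMP4 in pyruvate and 0.11 for day 6 against day 2. Of 23 further detected probes of called genes, 23 had the same sign as the probe used and 15 passed the rule of size. Dim genes near background, such as COL5A3, COL12A1, COL21A1 and LAMA4, carry only a bound or no fold.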

Other observations

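Metalloproteinases, which cut collagens and laminins, and their inhibitors were not described above. Of 13 detected at day 6 of BMP4 plus pyruvate or in E8, 6 were higher at day 6, 6 were lower and 1 was neither, beside 12.5% higher and 12.3% lower among all genes. MMP2, which degrades collagen IV and denatured collagen, was at least 2.40-fold higher and MMP9 2.61-fold, while MMP25 was 8.26-fold lower and MMP16 5.78-fold. The inhibitors divided as well: TIMP3, which binds to the matrix, was at least 6.94-fold and TIMP1 3.37-fold higher, while TIMP2 was lower and TIMP4 at least 1.49-fold lower. SPP1, the integrin ligand osteopontin, was highest with BMP4 plus pyruvate at day 2, where it was 8.30-fold higher than with BMP4, and it was 4.73-fold lower at day 6 than at day 2 of the mixture. With pyruvate alone it was 2.39-fold higher than in E8.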
